A study of Homo sapiens with 8 samples.

Results

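The genes described here are 10 members of the MHC class I antigen processing pathway, TAP1, TAP2, TAPBP, PSMB8, PSMB9, PSMB10, B2M, HLA-E, HLA-F and NLRC5, out of 18132 genes measured on the arrays. Each gene was taken by name, and its level is that of its brightest probe set among those annotated to exactly 1 gene. All 10 lay above the signal filter, a mean of 5.83 log2 over the arrays, and belonged to the 12845 genes tested.

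The cells were NB4, a human acute promyelocytic leukaemia line, and all of them had received lentivirus at a multiplicity of infection of 10. The virus carried a scrambled control or 1 of 3 short hairpins against CDK2, a cyclin-dependent kinase, named shCDK2 #1, #3 and #10. RNA was taken 2 days after transduction, called an early differentiation stage by the submitters, or 5 days after, called a late one. There were 8 Affymetrix arrays, 1 for each construct and day, labelled from 6 µg of total RNA each. Untransduced cells were not analysed here, so every value is relative to cells that also carried virus. The labels do not say whether the arrays came from separate transductions. In the hairpin comparisons the days stood in as repeats of a construct, and in the knockdown comparisons the 3 hairpins did. The p-values thus cover no more than the spread of constructs between days or the spread between hairpins. Any technical part of that spread cannot be told apart.

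Class I molecules show peptides of the cell's own proteins to cytotoxic T cells. The immunoproteasome, in which PSMB8, PSMB9 and PSMB10 replace the standard catalytic subunits, cuts proteins into peptides, the TAP1-TAP2 transporter carries the peptides into the endoplasmic reticulum, and tapasin (TAPBP) holds the transporter beside empty class I molecules. A class I molecule is a heavy chain such as HLA-E or HLA-F bound to beta-2-microglobulin (B2M). Many of these genes are known targets of interferon through ISRE and GAS elements and of the transactivator NLRC5, and myeloid cells carry the pathway throughout their development.

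Array medians lay between 6.30 and 6.43 log2, and 0 pairs of arrays were identical. CDK2 itself read 9.10 log2 in the scramble array, 7.78 in #1, 9.03 in #3 and 7.54 in #10 at day 2, and, in that order, 8.19, 7.89, 7.72 and 8.08 on the later day. Thus the array labelled #3 at day 2 had nearly the CDK2 level of scramble, and the array labelled scramble at day 5 lay close to the 3 hairpin arrays of that day. Some hairpin comparisons are also given without these 2 arrays, whereas the other values include them, since scramble at day 5 has no other array. That fit keeps a single array of scramble (day 2) and of #3 (day 5) and takes the day effect from #1 and #10. It is therefore given by its differences. MPO, a promyelocyte granule enzyme, was between 13.37 and 14.40 log2 in every array, while ELANE, another granule enzyme, was low at 5.83 to 6.35 log2. The mean of the 5 promyelocyte markers measured was 9.55 log2 at day 2 and 9.32 at day 5 in #10, the lowest of each day, against 9.57 to 10.17 in the other 6 arrays. PRTN3, a further granule protease, read 9.99 and 9.76 log2 in #10 against 11.18 and 10.76 in scramble. AZU1 of the same list went the other way at day 2, at 10.50 log2 in #10 against 9.28 in scramble. At day 5 it read 8.39 against 8.83, and MPO 14.09 against 14.15, so the list did not move together. The part of these markers in the results of #10 was not tested.

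With hairpin #10, TAP1 and PSMB9 rose on both days and HLA-E was also higher. Relative to the scramble array of the same day, the level of TAP1 was 2.58 times as high at day 2 and 6.19 times at day 5. PSMB9 was at 3.04 and 3.77 times the scramble level, and HLA-E at 3.04 and 2.74 times. Hairpin #3 had TAP1 at 2.25 times and HLA-E at 2.69 times the scramble level at day 5, and hairpin #1 had the same 3 genes between 0.79 and 1.38 times on either day.

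**Figure D1:**
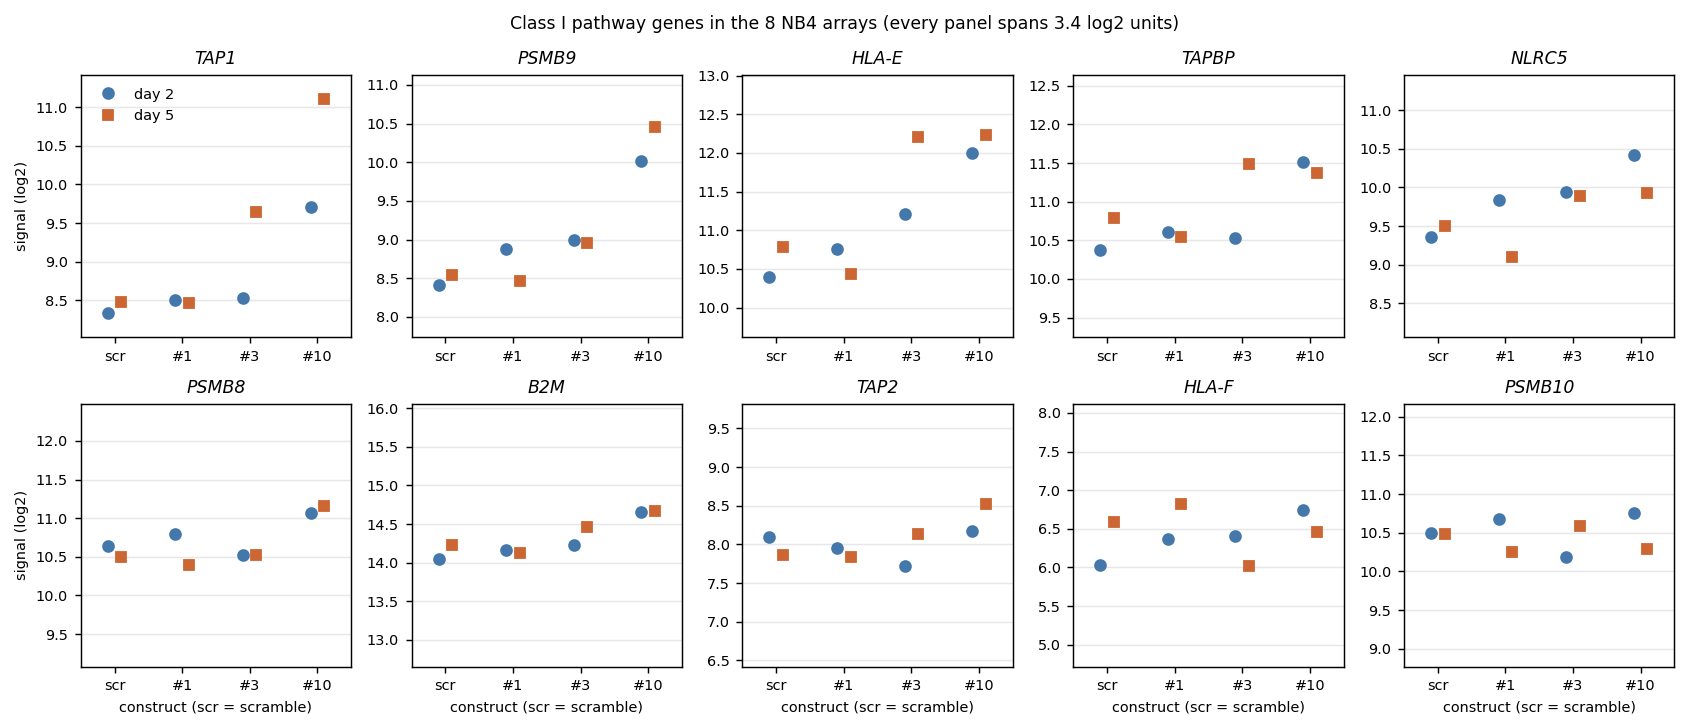
Signal (log2) of each of the 10 genes by construct (horizontal axis), with 1 array per point, circles for day 2 and squares for day 5. Both #10 arrays stand above both scramble arrays for TAP1, PSMB9, HLA-E, TAPBP, NLRC5, PSMB8, B2M and TAP2, and not for HLA-F and PSMB10.

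PSMB9 (LMP2) is the immunoproteasome subunit that replaces PSMB6. At day 2 it read 8.41 log2 in scramble, 8.87 in #1, 9.00 in #3 and 10.02 in #10, and at day 5 it read 8.55, 8.47, 8.95 and 10.46 in the same order. The 2 arrays of #10 were the highest of the 8, more than 1 log2 unit above every other array, and the other 6 lay within 8.41 to 9.00. Over both days the difference between #10 and scramble was 1.76 log2 (SE 0.23, 95% confidence interval 1.22 to 2.30, limma adjusted p = 0.021).

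TAP1 is 1 of the 2 chains of the peptide transporter. It read 8.34 log2 in scramble, 8.50 in #1, 8.53 in #3 and 9.71 in #10 at day 2, and 8.48, 8.47, 9.65 and 11.11 at day 5. The level of #10 was above all others on each day, and #3 joined it only at day 5, where it lay near the day 2 level of #10. Over both days #10 exceeded scramble by 2.00 log2 (SE 0.36, 95% confidence interval 1.16 to 2.84, limma adjusted p = 0.046).

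These were the 2 members called, at an adjusted p under 0.05, in #10 against scramble, where 2.01% of all genes tested were called, 217 higher and 41 lower. With every array centred on its median, 82 genes were called, 80 of them higher, and PSMB9 was the 1 member called. The calls rested on few arrays: without the scramble array of day 2, without that of day 5 or without the #10 array of day 5, 0 members were called. Of all genes tested, 0 were called without either scramble array and 182 without #10 at day 5. The value of TAP1 was then 2.34, 1.66 and 1.50 log2 (limma adjusted p = 0.22, 0.23 and 0.084) and that of PSMB9 1.69, 1.83 and 1.49 log2 (limma adjusted p = 0.20, 0.19 and 0.051). With both doubtful arrays left out, scramble at day 5 and #3 at day 2, PSMB9 was at 1.82 log2, HLA-E at 1.75 and TAP1 at 1.73. Scramble then had a single array, so only the differences are given.

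TAP1 and PSMB9 are neighbours on chromosome 6 that are read in opposite directions from the same stretch of DNA, and their start sites lie 488 bases apart. The RefSeq promoter table (GRCh38.p14) held 10 start-site windows for 8 of the members. The windows of the called pair follow, with those of TAPBP, B2M and PSMB10 for comparison, each the 250 bases before the start site read 5′ to 3′ on the gene's strand. They are chr6:32853705-32853954 on the minus strand for TAP1, chr6:32853942-32854191 on the plus strand for PSMB9, chr6:33314079-33314328 on the minus strand for TAPBP, chr15:44711267-44711516 on the plus strand for B2M and chr16:67936851-67937100 on the minus strand for PSMB10. Capitals mark matches, on either strand, to an interferon-stimulated response element (ISRE, GAAA, any 2 bases, GAAA), a gamma-activated site (GAS, TTC, any 3 bases, GAA) or a kappa B site (GGG, any 2 bases, TT, any base, CC).
TAP1: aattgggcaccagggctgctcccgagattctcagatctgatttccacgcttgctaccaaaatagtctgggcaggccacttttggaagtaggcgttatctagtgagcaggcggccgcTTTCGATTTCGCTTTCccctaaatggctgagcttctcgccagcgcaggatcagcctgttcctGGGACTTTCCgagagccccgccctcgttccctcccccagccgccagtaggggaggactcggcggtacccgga
PSMB9: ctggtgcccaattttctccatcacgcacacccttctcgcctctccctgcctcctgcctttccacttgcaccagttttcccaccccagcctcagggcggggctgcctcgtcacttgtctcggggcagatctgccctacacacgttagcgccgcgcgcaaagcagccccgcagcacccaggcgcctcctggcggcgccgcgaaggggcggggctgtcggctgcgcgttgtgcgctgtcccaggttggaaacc
TAPBP: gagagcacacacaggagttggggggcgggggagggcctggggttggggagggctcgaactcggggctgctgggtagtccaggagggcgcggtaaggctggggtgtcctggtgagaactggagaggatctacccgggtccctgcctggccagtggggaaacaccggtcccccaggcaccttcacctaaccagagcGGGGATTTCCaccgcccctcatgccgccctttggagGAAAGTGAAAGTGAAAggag
B2M: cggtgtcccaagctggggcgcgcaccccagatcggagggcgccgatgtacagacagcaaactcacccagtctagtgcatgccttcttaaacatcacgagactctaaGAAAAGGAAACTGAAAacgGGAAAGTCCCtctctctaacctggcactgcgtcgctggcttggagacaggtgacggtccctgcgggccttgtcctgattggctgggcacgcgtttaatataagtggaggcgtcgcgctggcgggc
PSMB10: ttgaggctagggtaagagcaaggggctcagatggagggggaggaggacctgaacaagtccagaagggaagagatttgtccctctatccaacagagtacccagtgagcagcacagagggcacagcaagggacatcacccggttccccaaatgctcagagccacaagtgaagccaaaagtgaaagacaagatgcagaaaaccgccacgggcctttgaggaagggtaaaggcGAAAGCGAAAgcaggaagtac

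TAP1 had a second window in the table, chr6:32852762-32853011, which held no ISRE match and 1 GAS match. The TAP1 window printed here held 2 overlapping ISRE matches, 134 to 119 bases before its start site, and a kappa B match 72 to 63 bases before it. Seen from PSMB9 the same ISRE letters lie 354 to 369 bases before the start, outside the printed window, and the PSMB9 window itself held none of the 3 motifs. TAPBP and B2M each held 2 overlapping ISRE matches and 1 kappa B match, and PSMB10 held 1 ISRE match 21 to 12 bases before its start. In all, 6 of the 10 windows of the members had an ISRE match, against 3.02% of the 35116 windows in the table. A GAS match was in 2 of the 10, against 6.57% of all windows, and a kappa B match in 3, against 5.07%. These matches are letters in a window and no measure of binding.

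The other immunoproteasome subunits had smaller estimates than PSMB9. PSMB8 (LMP7), which replaces PSMB5, read 10.64, 10.79, 10.52 and 11.06 log2 in scramble, #1, #3 and #10 at day 2, and 10.50, 10.40, 10.53 and 11.16 at day 5. Both #10 arrays were above the other 6, by a difference from scramble of 0.54 log2 (SE 0.19, limma adjusted p = 0.17). PSMB10 (MECL-1), which replaces PSMB7, read 10.50, 10.68, 10.18 and 10.75 log2 at day 2 and 10.48, 10.25, 10.59 and 10.29 at day 5. Its groups overlapped, with a difference between #10 and scramble of 0.03 log2 and a 95% confidence interval from -0.55 to 0.61.

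The standard catalytic subunits, which hold the same places in the ordinary proteasome, lay the other way in #10, although none passed the test. PSMB6 read 11.36, 11.20, 10.97 and 10.10 log2 at day 2 and 11.18, 11.43, 10.65 and 10.77 at day 5, in the order scramble, #1, #3, #10. The 4 arrays of #3 and #10 were thus all below the 4 of scramble and #1. The difference between #10 and scramble was -0.83 log2 (SE 0.26, limma adjusted p = 0.13) for PSMB6, which lay at -1.25 at day 2 and -0.41 at day 5, -0.60 (SE 0.18, limma adjusted p = 0.12) for PSMB5 and -0.74 (SE 0.23, limma adjusted p = 0.13) for PSMB7. Over the alternative settings PSMB6 ran from -1.21 to -0.45 log2. Of 13 other 20S core and assembly genes tested, 13 had a negative difference in #10 and 0 were called, with a median of -0.41 log2 against -0.09 over all genes tested. Of all genes, 38.7% had a positive difference and 2.01% were called. PSMA6 was not analysed here.

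**Figure D2:**
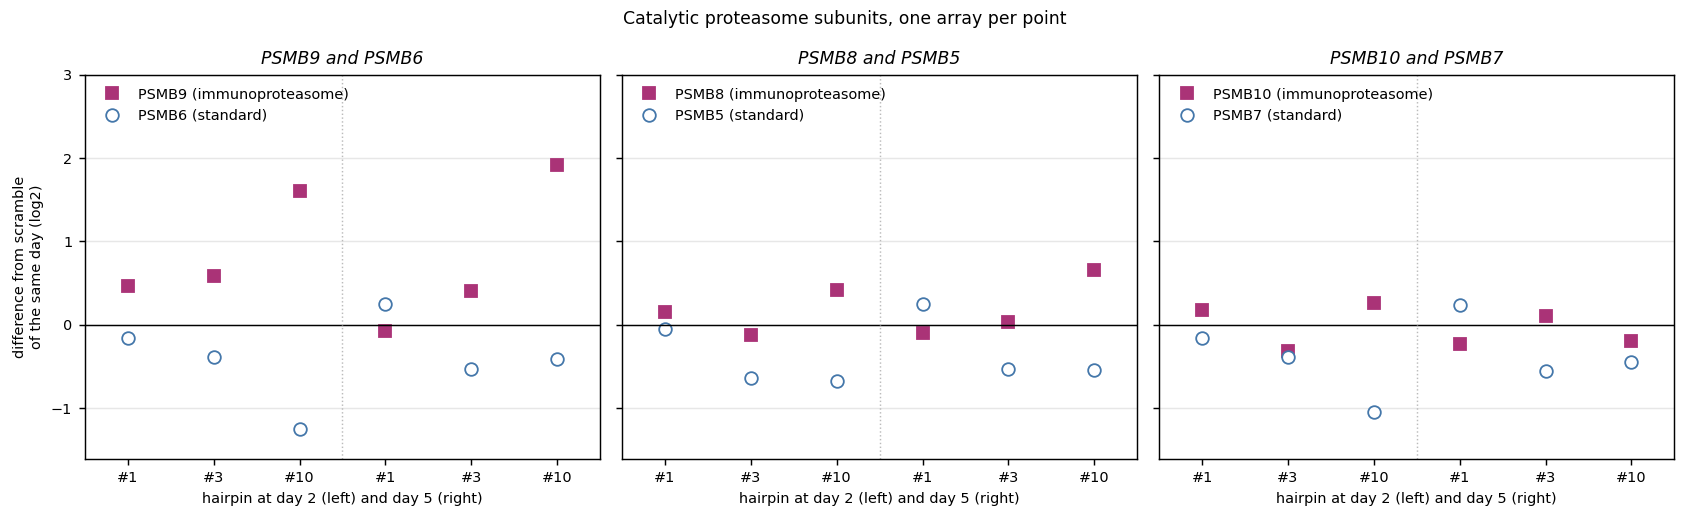
Difference from the scramble array of the same day (log2, vertical axis) for each immunoproteasome subunit (filled squares) and the standard subunit it replaces (open circles), with 1 array per point, ordered by hairpin within day 2 and then day 5. In #10 PSMB9 lies at 1.61 and 1.92 log2 while PSMB6 is below 0 on both days, and PSMB10 lies between -0.31 and 0.26 log2 in all 6 arrays.

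Of the proteasome activators, PSME1 and PSME2 form the interferon-inducible cap and PSME3 a nuclear one. PSME3 fell with #10 by 1.17 log2 (SE 0.22, limma adjusted p = 0.047), from 9.80 log2 in scramble to 8.27 at day 2 and from 9.47 to 8.66 at day 5. That call was lost with centring (limma adjusted p = 0.079), and PSME3 was called in 6 of 15 alternative settings. Without the scramble array of day 2 the value was -0.87 log2, and with both doubtful arrays left out it was -1.50 log2. In every hairpin array PSME3 was below the scramble array of its day, from -0.13 log2 in #1 at day 5 to -1.53 in #10 at day 2. PSME1 differed by 0.44 log2 (limma adjusted p = 0.30) and PSME4 by -0.84 (limma adjusted p = 0.074). In all, 1 of the 4 activators was called, where 2.01% of all genes tested were.

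TAP2, the partner chain of TAP1, had a smaller estimate than TAP1. It read 8.10 log2 in scramble, 7.95 in #1, 7.72 in #3 and 8.17 in #10 at day 2, and 7.87, 7.84, 8.14 and 8.52 at day 5. Hairpin #10 gave the highest array on each day, by only 0.07 log2 over scramble at day 2. The difference over both days was 0.36 log2 with a 95% confidence interval from -0.16 to 0.87 (limma adjusted p = 0.44).

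Tapasin, TAPBP, read 10.38, 10.60, 10.53 and 11.51 log2 at day 2 and 10.79, 10.54, 11.48 and 11.37 at day 5. High arrays were #10 on both days and #3 at day 5, and the remaining 5 lay between 10.38 and 10.79. Its difference between #10 and scramble was 0.86 log2 (SE 0.28, limma adjusted p = 0.15). The loading complex also holds PDIA3 (ERp57), a thiol oxidoreductase, at 12.22 and 12.14 log2 in #10 against 11.30 and 11.33 in scramble, a difference of 0.87 log2 (SE 0.18, limma adjusted p = 0.056). Of 11 loading and trimming genes tested, PDIA3 among them, 0 were called, 7 differed upward and 4 downward in #10, with a median of 0.19 log2. Of all genes tested, 2.01% were called and 38.7% differed upward, with a median of -0.09 log2. ERAP1, which trims peptides to length, differed by 0.73 log2 (limma adjusted p = 0.23) and THOP1, a cytosolic peptidase, by -0.63 (limma adjusted p = 0.12). LNPEP was not analysed here.

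HLA-E, a heavy chain that also engages the NKG2A receptor of natural killer cells, was high with hairpins #3 and #10. It read 10.40 log2 in scramble, 10.76 in #1, 11.21 in #3 and 12.00 in #10 at day 2, and 10.78, 10.43, 12.21 and 12.23 at day 5. All 4 arrays of #3 and #10 lay above all 4 of scramble and #1, and at day 5 #3 and #10 were level. The difference between #10 and scramble was 1.53 log2 (SE 0.30, 95% confidence interval 0.84 to 2.22) and just missed the threshold (limma adjusted p = 0.0505). For #3 it was 1.12 log2 (SE 0.30, limma adjusted p = 0.32). The calls of HLA-E in #10 depended on the setting, with an adjusted p of 0.040 after quantile normalization, 0.078 after centring and 0.041 with an intensity trend in limma.

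B2M, the light chain, was among the brightest genes of the array. It read 14.05, 14.17, 14.23 and 14.65 log2 at day 2 and 14.22, 14.12, 14.47 and 14.66 at day 5. The order was #10, #3 and then the rest on both days, in a narrow span near the top of the scale, where the highest probe set of an array was 14.95 to 15.10 log2. Between #10 and scramble B2M differed by 0.52 log2 (SE 0.18, limma adjusted p = 0.16).

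HLA-F, a non-classical heavy chain, was dim. It read 6.03, 6.37, 6.41 and 6.75 log2 at day 2 and 6.59, 6.82, 6.01 and 6.46 at day 5. Every hairpin array of day 2 was above its scramble array, but at day 5 #3 and #10 were below theirs, and the groups overlapped. The difference between #10 and scramble was 0.29 log2 with a 95% confidence interval from -0.35 to 0.94.

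Of the classical heavy chains, HLA-B read 10.76 log2 in scramble, 11.16 in #1, 11.22 in #3 and 12.47 in #10 at day 2, and 11.20, 11.00, 12.70 and 12.73 at day 5. The high arrays were the same 3 as for TAPBP, #10 on both days and #3 at day 5. The difference between #10 and scramble was 1.62 log2 (SE 0.35, limma adjusted p = 0.067) for HLA-B and 1.33 log2 (SE 0.30, limma adjusted p = 0.071) for HLA-C. Among 9 other class I heavy chain genes tested, these 2 included, 0 were called and the median difference was 0.17 log2. Of all genes tested, 2.01% were called and the median was -0.09 log2. HFE, an iron-regulating relative, stood at -0.27 log2 (limma adjusted p = 0.46). Heavy chains are alike in sequence, the probe sets used for HLA-E, HLA-F, HLA-B and HLA-C are of a type that may bind related transcripts, and cross-binding was not tested.

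NLRC5, the transactivator of class I promoters, read 9.36 log2 in scramble, 9.83 in #1, 9.94 in #3 and 10.42 in #10 at day 2, and 9.50, 9.11, 9.89 and 9.92 at day 5. All 3 hairpin arrays of day 2 were above every scramble array, while at day 5 #1 was the lowest of the 8. For NLRC5 #10 and scramble differed by 0.74 log2 (SE 0.24, limma adjusted p = 0.15).

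**Figure D3:**
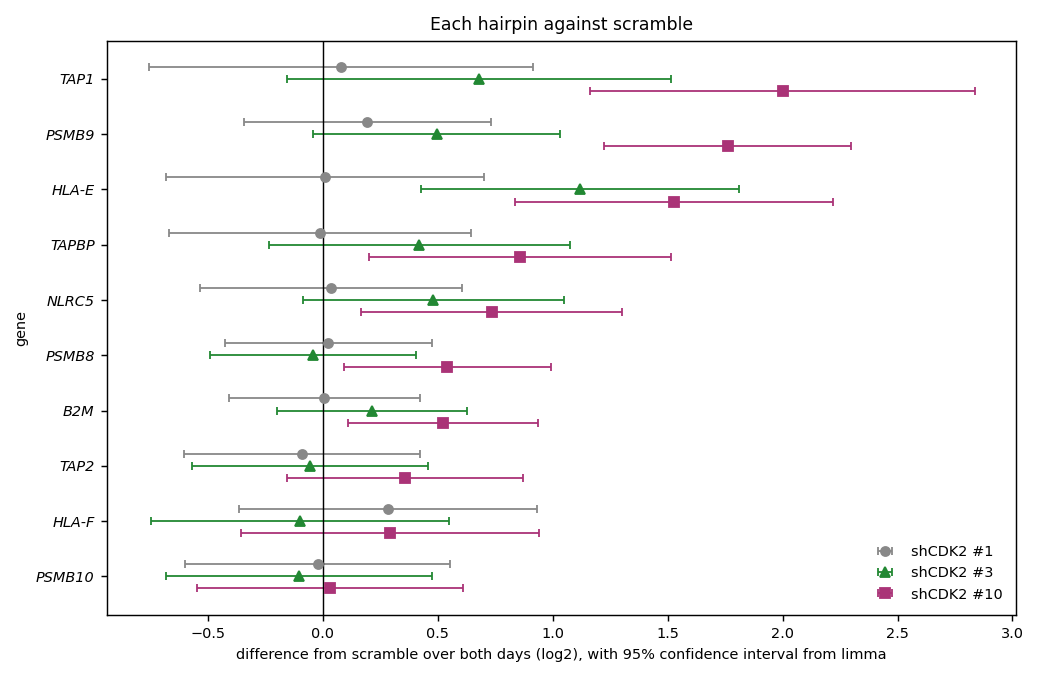
Difference of each hairpin from scramble over both days (log2, horizontal axis) for the 10 genes, with points for limma estimates from 2 arrays per construct and bars for 95% confidence intervals. Every interval of #1 spans 0, that of #3 lies above 0 for HLA-E, and those of #10 lie above 0 for 7 genes; the 3 comparisons share the scramble arrays.

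Across hairpins, the members' differences from scramble had their highest median in #10 and their lowest in #1. In #10 against scramble, 7 members had an unadjusted p under 0.05, against 20.2% of all genes tested. The median difference of the 10 members was 0.64 log2, against -0.09 over all genes tested. By the probe sets used, all 10 differences were positive, against 38.7% of all genes. For HLA-F and PSMB10 every other probe set was below 0. Both #10 arrays were above both scramble arrays for 8 members, all but PSMB10 and HLA-F, where 21.2% of all genes tested had that order. For #3 the median was 0.32 log2 against -0.07 over all genes. In that comparison 0 members were called in limma, where 0.0311% of all genes were, and 1 member, HLA-E, had an unadjusted p under 0.05, against 9.47% of all genes. Both #3 arrays were above both scramble arrays for 5 members, TAP1, PSMB9, B2M, HLA-E and NLRC5, where 15.8% of all genes had that order. With both doubtful arrays left out, #3 at day 5 was set against scramble at day 2, and the median of the 10 was 0.53 log2. For #1 the median was 0.02 log2, 0 members were called in limma at 0% of all genes, 0 members and 1.33% of all genes had an unadjusted p under 0.05, and 0 members had both arrays above both of scramble, against 11.4% of all genes.

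Set directly against each other, hairpins #10 and #1 differed for PSMB9 by 1.57 log2 (SE 0.23, limma adjusted p = 0.053), for TAP1 by 1.92 (SE 0.36, limma adjusted p = 0.076) and for HLA-E by 1.52 (SE 0.30, limma adjusted p = 0.082). None of the 10 members was called there, where 0.327% of all genes tested were, and 7 members had an unadjusted p under 0.05, against 15.8% of all genes. The differences between #10 and #1 come only from the arrays of these hairpins, so leaving out both doubtful arrays cannot change them. Between #10 and #3 the differences were 1.26 log2 for PSMB9 (SE 0.23, limma adjusted p = 0.48), 1.32 for TAP1 (SE 0.36, limma adjusted p = 0.75) and 0.41 for HLA-E with a 95% confidence interval from -0.28 to 1.10. In that comparison 0 members were called in limma at 0% of all genes, and 3 members had an unadjusted p under 0.05, against 5.76% of all genes. Between #3 and #1, 0 members were called in limma at 0% of all genes, and HLA-E alone, at 1.11 log2 (SE 0.30, limma adjusted p = 0.25), had an unadjusted p under 0.05, against 12% of all genes. With both doubtful arrays left out, the members' median between #3 and #1 was 0.34 log2, against -0.08 over all genes.

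With the hairpins taken as repeats of the knockdown and set against 1 scramble array, 0 members were called in limma at day 2 or at day 5, each at 0% of all genes tested, so these fits say nothing particular of the members. An unadjusted p under 0.05 was reached by 0 members on either day, against 3.44% of all genes at day 2 and 1.33% at day 5. The largest estimates were 0.93 log2 (SE 0.76) for HLA-E and 0.89 (SE 0.76) for PSMB9 at day 2, and 1.26 (SE 0.93) for TAP1 at day 5, each of the order of its own SE. At day 2 all 3 hairpin arrays were above scramble for 7 members, TAP1, TAPBP, PSMB9, B2M, HLA-E, HLA-F and NLRC5, where 25.6% of all genes had that order. At day 5 this held for 0 members, where 16% of all genes had it, since #1 was below the scramble array of that day for every member but HLA-F. At day 2 the median difference of the members from scramble was 0.21 log2 in #1, 0.19 in the array labelled #3 and 0.89 in #10. At day 5 it was -0.10 in #1, 0.33 in #3 and 0.61 in #10. Over all genes tested these medians lay between -0.11 and 0.03 log2.

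Between the days, TAP1 was higher at day 5 by 1.12 log2 in #3 and 1.40 in #10, while it differed by 0.14 in scramble and -0.04 in #1. HLA-E differed by 1.00 log2 in #3, 0.23 in #10, 0.38 in scramble and -0.33 in #1. NLRC5 was lower at day 5 in all 3 hairpins, by -0.73, -0.05 and -0.49 log2 in #1, #3 and #10, and 0.14 higher in scramble. Over the 3 hairpins 0 members were called in limma between day 5 and day 2, at 0% of all genes, with 0 members and 2.02% of all genes under an unadjusted p of 0.05. No member had its 3 hairpin arrays of day 5 all above those of day 2, an order found in 2.79% of all genes. The change of the knockdown difference from day 2 to day 5 was called in limma for 0 members, at 0% of all genes, with 0 members and 1.28% of all genes under an unadjusted p of 0.05. Its estimate for TAP1 was 0.69 log2 with a 95% confidence interval from -2.41 to 3.78.

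The brightest probe set spoke for the gene in most cases but not all. The 10 genes had 46 probe sets of 1 gene. Every probe set of TAP1 (2), TAP2 (4), PSMB9 (3), B2M (8), HLA-E (6) and NLRC5 (2) was higher in #10 than in scramble on both days. A pair of the B2M probe sets had identical values in every array, so they do not count separately. For PSMB8, 2 of 3 probe sets were higher on both days, and the other, below the filter, stood at -0.03 log2. For HLA-E the mean difference ranged from 1.53 to 2.19 log2 over its 6 probe sets, with the one used here the lowest, and for TAP1 it was 1.64 and 2.00 log2. One of the 3 probe sets of PSMB9, the dimmest, stood at 0.20 log2. TAPBP disagreed, since 2 of its 5 probe sets were higher on both days and their mean differences ran from -0.01 to 0.86 log2, the highest being that of the probe set used. All 3 probe sets of PSMB10 lay between -0.03 and 0.03 log2. Of the 10 probe sets of HLA-F, 8 lay below the filter, 0 were higher on both days and 5 were lower on both. Their mean differences ran from -0.26 to 0.29 log2, and only that of the probe set used was above 0.

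**Figure D4:**
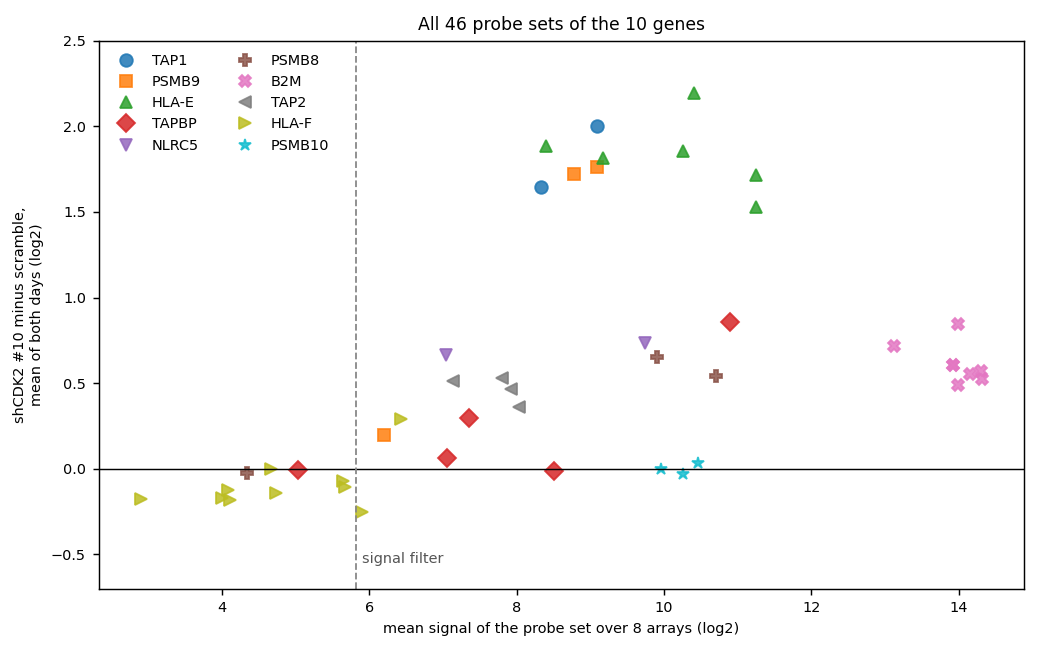
Mean difference between #10 and scramble over both days (log2, vertical axis) against mean signal over the 8 arrays (log2, horizontal axis) for all 46 probe sets of the 10 genes, with 1 point per probe set and the signal filter as a dashed line. The 6 probe sets of HLA-E and both of TAP1 lie above 1.5 log2, those of PSMB10 lie at 0, and those of HLA-F gather at low signal around 0.

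Among 16 tested regulators of class I transcription, 1 was called in #10 against scramble, where 2.01% of all genes tested were. IRF2, an interferon regulatory factor that binds ISREs, rose by 1.20 log2 (SE 0.19, limma adjusted p = 0.037). It read 7.26 log2 in scramble, 7.77 in #1, 7.85 in #3 and 8.55 in #10 at day 2, and 7.60, 7.86, 8.33 and 8.71 at day 5. All 6 hairpin arrays were above both scramble arrays. Without scramble at day 2 or day 5, or without #10 at day 2 or day 5, IRF2 was not called. With both doubtful arrays left out it was at 1.30 log2. IRF9, the DNA-binding part of the complex that type I interferon activates, read 6.86, 7.76, 6.89 and 9.93 log2 at day 2 and 7.79, 7.46, 10.15 and 10.38 at day 5, a difference between #10 and scramble of 2.83 log2 (SE 0.70, limma adjusted p = 0.084). IRF1 differed by 0.62 log2 (limma adjusted p = 0.42), NFYA, a subunit of the CCAAT-binding factor, by -0.62 (limma adjusted p = 0.25), and the list's median was 0.12 log2.

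Of 8 tested interferon ligands, receptors and JAK kinases, all 8 were higher in #10 and 0 were called, with a median of 0.74 log2. Of all genes tested, 38.7% were higher in #10 than in scramble and 2.01% were called, with a median of -0.09 log2. IFNGR2, a chain of the interferon gamma receptor, differed by 1.65 log2 (SE 0.32, limma adjusted p = 0.0505), its partner IFNGR1 by 1.51 (SE 0.38, limma adjusted p = 0.084) and the kinase JAK1 by 1.14 (SE 0.30, limma adjusted p = 0.092). The ligands IFNB1 and IFNG lay below the signal filter, at up to 5.18 log2 and 4.40 log2. Of 8 tested class II genes, which present peptides to helper T cells, 0 were called. In #10, 7 were lower and 1 higher, where most of all genes tested were also lower. Their median was -0.16 log2, against -0.09 over all genes, and HLA-DPB1 stood at -0.39 (limma adjusted p = 0.35). All 3 tested genes of the class I receptor list, LILRB3, LILRA1 and CD8A, were between -0.19 and -0.15 log2 and 0 were called.

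Markers of other cell types were set beside these levels. The monocyte and macrophage list (CD14, CSF1R, CD163, MRC1 and FCGR3A, of which 3 of 5 were above the filter) had a mean of 4.71 to 4.98 log2 in 6 arrays, 6.26 in #3 at day 5 and 8.02 in #10 at day 5. CD14 was 8.43 log2 in #3 and 10.65 in #10 at day 5 and 5.15 to 5.76 elsewhere, and MRC1 stayed at 3.51 to 4.04. At day 2 the list stood at 4.98 log2 in #10 and 4.95 in #1, where PSMB9 was 1.61 and 0.46 log2 above scramble. That mean includes MRC1 and FCGR3A, which lay below the filter. Of the genes above the filter, CD14 and CSF1R were highest of the day 2 arrays in #10. They read 5.76 and 7.68 log2 there, against 5.19 and 7.10 in scramble. CD163 was highest in #1 instead, at 4.88 log2 against 4.70 in #10. The T and NK cell list (6 of 6 above the filter) ran from 7.08 to 7.79 log2 and was highest in #10. Of its genes, CD3D was at 11.27 and 10.85 log2 in #10 against 8.81 to 9.54 elsewhere and NKG7 at 10.45 and 10.52 against 9.31 to 10.30, while CD3E, CD2 and GNLY lay within the range of the other arrays in #10. The dendritic list (4 of 6 above the filter) ran from 5.77 to 6.34. In it IL3RA stood at 9.06 log2 in #10 at day 2, 9.33 in #3 at day 5 and 9.91 in #10 at day 5. Elsewhere it read 6.26 to 7.22, and the 3 arrays were those in which TAPBP and HLA-B were high. The rest of the list did not follow it. At day 2 and day 5, FLT3 read 7.01 and 5.82 log2 in #10 against 6.48 and 6.92 in scramble. In the same order CLEC10A read 5.62 and 6.41 against 6.05 and 6.16, and CD1C 6.72 and 6.61 against 6.35 and 6.73. The B cell list (2 of 3) ran from 7.06 to 7.55, the erythroid and megakaryocyte list (3 of 4) from 6.24 to 6.81, and the fibroblast and epithelial list (4 of 6) from 5.67 to 5.91 log2. The part of these markers in the results of either day was not tested, and more class I RNA per cell cannot be told apart from more cells that express it.

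The genes whose pattern lay nearest to the mean of the 10 members, each gene centred on its own mean over the 8 arrays, were FADS3, RHOC, LGALS1, OCEL1 and BBX, with root mean square differences of 0.07, 0.09, 0.10, 0.10 and 0.10 log2. RHOC, a small GTPase, rose in #10 by 1.06 log2 (SE 0.20, limma adjusted p = 0.047), and was called in 7 of 15 alternative settings, with a limma adjusted p of up to 0.28. B2M was the member nearest to the mean, at 0.14 log2, with 43 other genes nearer, and TAP1 the farthest, at 0.59 log2, with 11378 genes nearer.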

How the data were processed

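For 8 arrays of 49395 probe sets, the values that the authors deposited are log2 signals. The submitters' processing notes name Partek; both the normalization and the version were not given in the sources used here, and the log2 scale was read from the range of the values. Probe sets were named by the array annotation (44994 with 1 gene, 1832 with several, 2569 with none), and 44967 of the first were updated through RefSeq gene IDs. A gene was its brightest probe set, tested above the 40th percentile of mean signal. The deposited values were not changed before fitting. Models were fitted in limma 3.58.1 (R 4.3.3, data.table version 1.17.8), with two-sided tests and Benjamini-Hochberg adjustment over the 12845 genes tested, called at 0.05. Knockdown and day comparisons had 1 coefficient for each group on each day (4 residual and 3.13 prior degrees of freedom), and hairpin comparisons had terms for construct and for day (3 residual, 4.54 prior). Where scramble had a single array, its spread was taken to equal that of the hairpins. The fits were tested on simulated data.

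Named were all 10 members, CDK2, up to 3 genes of each pathway list by mean difference from scramble, some genes listed beforehand (such as PSMB5 and IRF1), and the 5 genes nearest in pattern. Genes beyond these (the cell type markers, PSME2, IFNB1 and IFNG) were named to show list values. The members and lists were chosen with earlier results of these data known. Promoter windows came from RefSeq (GRCh38.p14) and were searched in Python 3.11.15; bases after the start site were left out. Alternatives were quantile normalization, median centring, averaging all probe sets of a gene, no filter, a filter at the 60th percentile, an intensity trend, the hairpin number as a block, each array left out, and, chosen after seeing the data, both doubtful arrays left out. The number of arrays limits the precision.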

Additional observations from a re-analysis of the deposited data

How the results depend on the processing

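Values are for shCDK2 against scramble unless another pair is named. For #10, 2 members were called as deposited, 1 after centring, 1 with the 60th percentile filter, 3 after quantile normalization and 4 with an intensity trend. No member was called without either scramble array or without #10 at day 5. The members' median for #10 ran from 0.57 to 0.78 log2 with single arrays left out. Of all genes, 258 were called as deposited, 82 after centring, 131 with the stricter filter, 367 after quantile normalization and 323 with an intensity trend. With single arrays left out, the members' median ran from -0.23 to 0.22 log2 for #1 and from 0.17 to 0.38 for #3, and for #3 it was 0.42 with the 60th percentile filter. With both doubtful arrays left out, the median was 0.86 log2 for #10, 0.53 for #3 and 0.34 for #3 against #1. For #10 against #1 it was 0.61 log2, the same as with all arrays, since that difference uses neither doubtful array. For #10 against #1, 1 member was called with a trend, where 0.553% of all genes were. Members were also called in that pair without #1 at day 2, without #10 at day 2 or without either #3 array. Those fits leave a construct with a single array, so their counts are not given. The members' median for that pair ran from 0.41 to 0.85 log2 with single arrays left out. With single arrays left out, the median ran from 0.05 to 0.45 for #3 against #1 and from 0.21 to 0.64 for #10 against #3.

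Signs turned for genes that were not called. For #3, TAP2 was 0.040 with the mean of probe sets and -0.28 to 0.17 with single arrays left out, PSMB8 0.0043 after centring, 0.035 without the doubtful arrays and -0.12 to 0.032 with single arrays left out, PSMB10 0.54 and -0.46 to 0.25, TAPBP -0.023 to 0.86 and HLA-F -0.42 to 0.22. For #10, PSMB10 was -0.0019 with the mean of probe sets and -0.20 to 0.26 with single arrays left out, and HLA-F -0.028 to 0.61. For #10 against #1, PSMB10 was -0.037 after quantile normalization and -0.18 to 0.28 with single arrays left out, and HLA-F -0.24 to 0.26. For #10 against #3 without the doubtful arrays, TAPBP was -0.094, PSMB10 -0.29, HLA-E -0.12 and NLRC5 -0.025, and with single arrays left out TAPBP ran from -0.0075 to 0.88, PSMB10 from -0.22 to 0.49 and HLA-E from -0.045 to 0.86. The cause of these turns was not tested.

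The same hairpin's deviations at day 2 and day 5 correlated at 0.715 for #1, -0.228 for #3 and 0.432 for #10 over genes. The number thus paired the arrays of #1 but not those of #3. For #10 the day 2 array correlated more with #3 at day 5, at 0.568, than with its own day 5 array. With the hairpin number as a block, day 5 against day 2 had 0 members called, at 0% of all genes. Each hairpin had 1 array on each day, so the block cannot change the estimates, and the median was again 0.03 log2.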
